A study of Mus musculus with 8 samples.

Results

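The genes described here are 10 mouse genes of iron uptake, storage and export, measured by RNA-seq in whole testes of wild-type mice and of mice homozygous for a mutation of Iqch, a testis gene that encodes an IQ motif protein. They were listed by name: the plasma iron carrier Trf and its receptor Tfrc, the iron importer Slc11a2, the ferritin genes Fth1, Ftl1 and Ftmt, the exporter Slc40a1 with the ferroxidase Cp, the heme-degrading enzyme Hmox1 and the iron sensor Ireb2. All 10 were among the 17127 genes of the deposited table. Of the 8 males sampled, all aged 4 months, values were analysed for 4 wild-type mice (wild type 1 to 4, genotype WT) and 3 mutants (mutants 1, 2 and 4, genotype Iqch-/-), with 1 library per mouse. The mutation is a small frame-shifting deletion in a coding exon, made by CRISPR-Cas9 in C57BL/6xCBA zygotes. The study kept 2 edited lines, and its RNA-seq coverage plot names the line Iqch mu7 for the mutants, while the sample labels name no line.

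Iron reaches most cells bound to transferrin, the product of Trf. The transferrin receptor, Tfrc, takes it into endosomes, and the divalent metal transporter Slc11a2 moves the freed iron into the cytosol. There it is used, stored in ferritin, a shell of heavy (Fth1) and light (Ftl1) subunits, or exported through ferroportin (Slc40a1), with ceruloplasmin (Cp) oxidising the exported iron. In the testis, Sertoli cells secrete transferrin towards the germ cells behind the blood-testis barrier, and macrophages recycle iron and heme in many tissues. Ftmt encodes a mitochondrial ferritin for which the testis is known as a main site of expression.

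Several of these mRNAs carry an iron responsive element, a short hairpin with the loop CAGTGN. Iron regulatory proteins, made from Aco1 and Ireb2, bind it when iron is scarce. Binding near the 5′ end of an mRNA blocks its translation, and binding in the 3′ untranslated region (UTR) of Tfrc protects the mRNA from decay. The hairpins are shown because they mark the members whose UTR sequence matches this element. Binding and regulation were not measured here. They were searched for in the UTRs of GENCODE transcripts (GRCm39), on the transcript strand only, as a C, any 5 bases, CAGTG and any 6 bases, with at least 4 of the 5 stem pairs on both sides of the loop matching (G with T counted as a pair). Each is printed 5′ to 3′ with DNA letters and the 6 loop bases in capitals.
Fth1, 5′ UTR, chr19:9960096-9960124, plus strand: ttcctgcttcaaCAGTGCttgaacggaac
Ftl1, 5′ UTR, chr7:45109203-45109231, minus strand: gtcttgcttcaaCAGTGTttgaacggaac
Slc40a1, 5′ UTR, chr1:45964625-45964653, minus strand: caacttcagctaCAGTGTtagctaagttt
Slc11a2, 3′ UTR, chr15:100293034-100293062, minus strand: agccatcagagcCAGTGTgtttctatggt
Tfrc, 3′ UTR, the first of 4, chr16:32450037-32450065, plus strand: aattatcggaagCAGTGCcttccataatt
Tfrc, 3′ UTR, the last of 4, chr16:32450528-32450556, plus strand: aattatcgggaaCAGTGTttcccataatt

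The Fth1, Ftl1, Slc40a1 and Tfrc hairpins had all 5 stem pairs and that of Slc11a2 had 4. In the transcript marked as canonical for each gene, a 5′ UTR hairpin with 5 pairs was found in 0.145% of the 13775 coding genes of the table. A 3′ UTR hairpin was found there in 0.682% with 5 pairs and 5.05% with at least 4. The members were searched in all their annotated coding transcripts, so these shares are not on the same basis. The hairpin lay in 9 of the 21 coding transcripts annotated for Slc11a2 and in 5 of the 9 for Slc40a1. The deposited values, one per gene, do not separate these forms. No such hairpin with at least 4 stem pairs was found in the annotated UTRs of Trf, Ftmt, Hmox1, Cp or Ireb2.

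Levels are given in CPM, which divides each gene's read count by its library's total over the table's genes and multiplies by 1000000. If the smallest step between values is 1 read, the libraries held 32064384 to 37551057 reads on these genes. Iqch itself was at 193 to 217 CPM in the wild-type libraries and at 64.8 to 69.2 CPM in the mutants. Markers of the testis were present in every library, with the protamine genes Prm2 and Prm1 the most abundant of the elongating spermatid markers.

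Mutant and wild type were compared with limma on log2(CPM + 0.1) over 17126 genes. A gene was called at a Benjamini-Hochberg false discovery rate (FDR) below 0.01. Of the 10 iron genes, 7 were called higher in the mutant and 0 lower, against 36.3% of all genes tested called higher and 14.2% called lower. In either direction 50.4% of all genes were called. The median log2 fold change of the 10 was 0.82, against 0.12 for all genes, the level at which a gene follows the bulk of the table. Slc40a1, Cp, Trf and Ftl1 rose more than 2-fold. Fth1, Hmox1 and Slc11a2 rose by 1.51 to 1.78-fold, and Tfrc, Ftmt and Ireb2 were not called. Division of the CPM by median-of-ratios size factors, which moved the median of all genes to -0.01, also left 7 members called higher and 0 lower, with 27% and 25.1% of all genes. Trimmed-mean factors gave 7 and 0 as well, with 26.2% and 26.4% of all genes. In the 7 called genes every mutant exceeded every wild type, and the groups were likewise separate in 62.3% of all genes tested. For each of the 7 the two-sided exact permutation p was 0.0286, the smallest that 4 against 3 libraries allow.

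**Figure D1:**
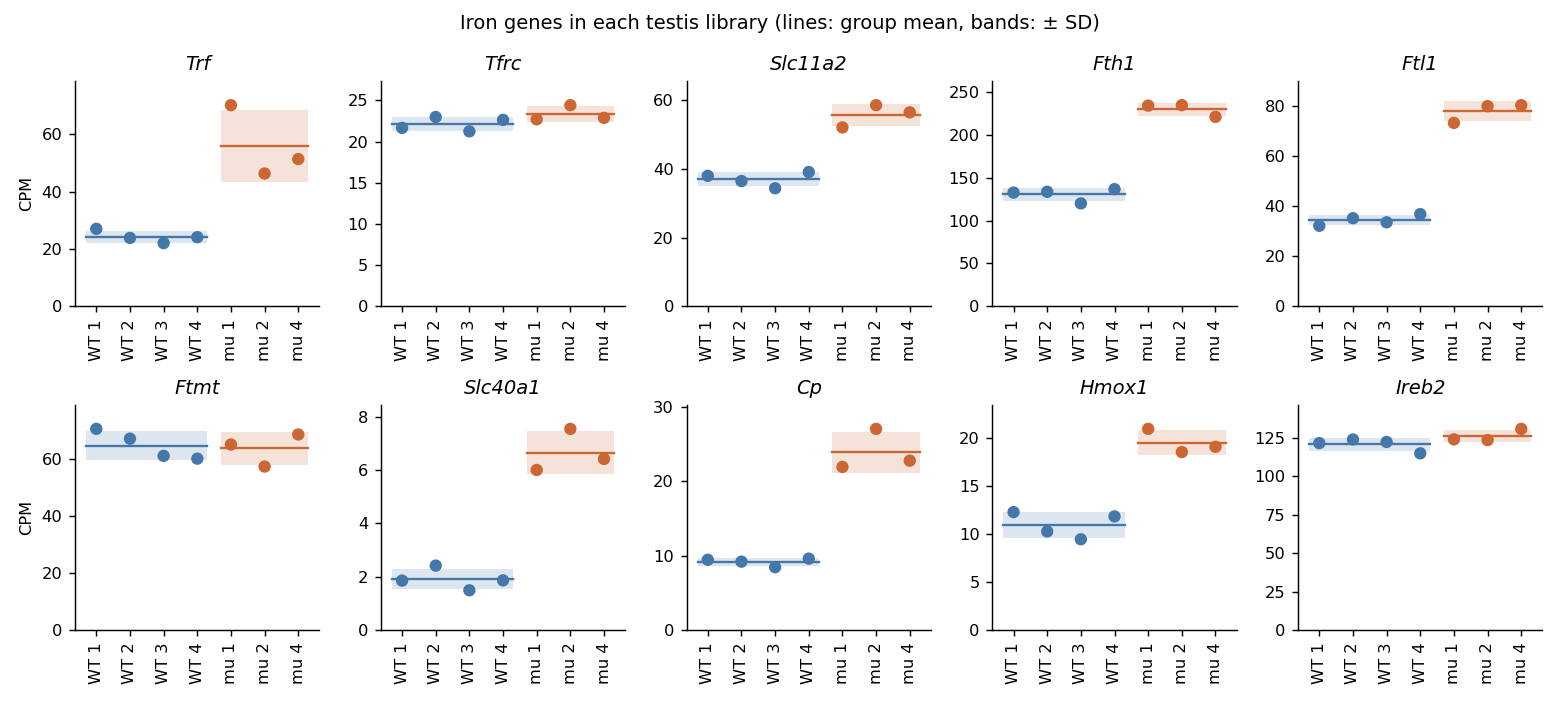
CPM of the 10 iron genes (vertical axes, each from 0) in the 4 wild-type (WT, blue) and 3 mutant (mu, orange) libraries, with group means as lines and ± SD as bands. The mutant points lie above all wild-type points for 7 genes and overlap with them for Tfrc, Ftmt and Ireb2.

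Uptake was divided between a carrier that rose and a receptor that did not pass the test. Trf (ENSMUSG00000032554, chromosome 9 from 103081200 to 103107814, minus strand) was at 27.0, 23.9, 22.03 and 24.1 CPM in wild type 1 to 4 and at 70.1, 46.3 and 51.3 CPM in mutants 1, 2 and 4. Every mutant stood above every wild type, and mutant 1 stood well above the other mutants, so that the mutant SD was large (55.9 ± 12.6 CPM, n = 3, against 24.3 ± 2.06 CPM, n = 4). The log2 fold change was 1.18 (standard error 0.12, limma FDR 2.3e-06), and 1.01 without mutant 1.

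Tfrc (ENSMUSG00000022797, chromosome 16 from 32427556 to 32451612, plus strand) was at 21.7, 23.0, 21.2 and 22.6 CPM in wild type and at 22.7, 24.4 and 22.9 CPM in the mutants. The groups overlapped, with 2 of the mutants below wild type 2. The log2 difference was 0.08 with a 95% interval from -0.06 to 0.21 (limma FDR 0.31), and -0.06 after scaling by size factors (interval from -0.19 to 0.07), so its sign depended on the scaling. In the wild type Trf and Tfrc were thus at similar CPM, with a ratio of 1.10 ± 0.101 (n = 4), and in the mutants the ratio was 2.41 ± 0.614 (n = 3). The other receptor of transferrin, Tfr2, averaged 4.45 ± 0.456 CPM over the wild types and 7.50 ± 0.199 CPM over the mutants, without overlap.

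Slc11a2 (ENSMUSG00000023030, chromosome 15 from 100285776 to 100322953, minus strand), which carries iron out of endosomes and, at the surface of some cells, into the cell, was at 38.0, 36.5, 34.4 and 39.1 CPM in wild type. It was at 52.1, 58.6 and 56.5 CPM in the mutants. The lowest mutant stood clear of the highest wild type, and the change, 0.59 on the log2 scale (standard error 0.06, limma FDR 3.8e-06), was the smallest of the 7 called members.

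Of the storage genes, Fth1 and Ftl1 rose and Ftmt was not called. Fth1 (ENSMUSG00000024661, chromosome 19 from 9957911 to 9962462, plus strand), whose heavy subunit oxidises iron for storage, was at 133, 133, 120.0 and 137 CPM in wild type and at 234, 234 and 221 CPM in the mutants. These groups were far apart and each was tight. The log2 fold change was 0.81 (standard error 0.05, limma FDR 3.9e-08). Ftl1 (ENSMUSG00000050708, chromosome 7 from 45107367 to 45109308, minus strand), whose light subunit helps the iron core to form, was at 32.1, 35.2, 33.5 and 36.8 CPM in wild type. In the mutants it was at 73.2, 79.9 and 80.3 CPM, and the log2 fold change was 1.17 (standard error 0.06, limma FDR 1.0e-08). The 95% interval for Ftl1, from 1.04 to 1.305, lay above that for Fth1, from 0.71 to 0.92, and the difference between both genes was not tested.

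The ratio of Fth1 to Ftl1 CPM was 4.13, 3.80, 3.58 and 3.71 in wild type 1 to 4 and 3.20, 2.93 and 2.75 in mutants 1, 2 and 4. All mutant ratios lay below all wild-type ratios, and the ratio, which was looked at after the values were seen, was not tested. Ftl1-ps1, annotated as a coding gene, is 99.6% identical to Ftl1 over its coding sequence, so that the counting could divide reads between them. It averaged 25.8 ± 3.28 CPM in wild type and 59.1 ± 4.72 CPM in mutants (log2 fold change 1.196, standard error 0.09, limma FDR 2.6e-07), close to the change of Ftl1.

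Ftmt (ENSMUSG00000024510, chromosome 18 from 52464621 to 52466068, plus strand), the mitochondrial ferritin gene, has a single annotated exon and is 74.0% identical to Fth1 over the aligned coding sequence. Its CPM was 70.6, 67.2, 61.1 and 60.2 in wild type and 65.1, 57.4 and 68.6 in the mutants. The mutants covered nearly the same range as the wild types. The log2 difference was -0.02 (95% interval from -0.18 to 0.13, limma FDR 0.79), and -0.16 after scaling by size factors (interval from -0.32 to 0.00, limma FDR 0.075). With trimmed-mean factors it was -0.17, with an interval below 0, from -0.333 to -0.015 (limma FDR 0.053). Ftmt was thus not called under any of these scalings, but a log2 difference down to -0.33 was not excluded. Fthl17a, a ferritin heavy chain-like gene, was not called either: its mean was 10.8 ± 0.816 CPM over the wild types and 10.01 ± 0.877 CPM over the mutants.

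Per kilobase of the canonical transcript, Ftl1 was below Ftmt in each wild-type library, at 33.2 to 38.0 against 41.5 to 48.8 CPM per kb, and above it in each mutant, at 75.5 to 82.8 against 39.6 to 47.4 CPM per kb. Fth1 was the highest of the 3 on this scale, at 129 to 147 CPM per kb in wild type and 238 to 252 CPM per kb in the mutants. With the length of all annotated exons of a gene instead, wild-type Fth1 was at 37.1 CPM per kb and below Ftmt at 44.7, so the order of these 2 genes in the wild type depends on the length used. The order of Ftl1 and Ftmt in the wild type may likewise depend on how reads were divided between Ftl1 and Ftl1-ps1, which are counted apart here.

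**Figure D2:**
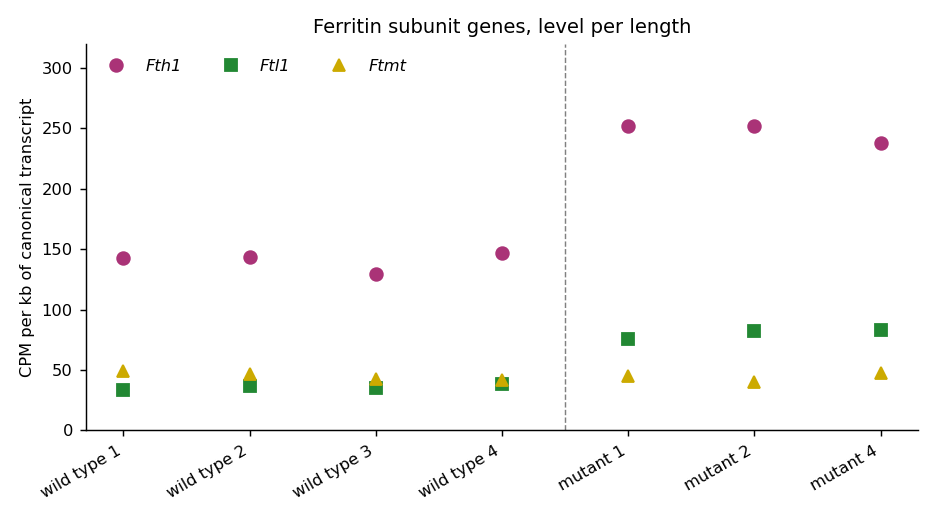
Level of the ferritin genes Fth1, Ftl1 and Ftmt in CPM per kilobase of canonical transcript (vertical axis, from 0) in each library, 1 point per gene and library. Ftl1 lies just below Ftmt in the wild-type libraries and above it in the mutants, where Ftmt stays between 39.6 and 47.4 CPM per kb.

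Export genes had the 2 largest changes of the 10. Slc40a1 (ENSMUSG00000025993, chromosome 1 from 45947211 to 45965683, minus strand), the known cellular exporter of iron in mammals, was at 1.85, 2.42, 1.49 and 1.86 CPM in wild type. It was at 6.005, 7.55 and 6.42 CPM in the mutants. The lowest mutant stood at more than 2-fold the highest wild type. The log2 fold change was 1.76 (standard error 0.17, limma FDR 1.5e-06), or 3.49-fold between the means. Only 1 wild-type library reached the minimum of 2.2 CPM, so the gene entered the test through the mutants.

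Cp (ENSMUSG00000003617, chromosome 3 from 20011090 to 20063930, plus strand), the ferroxidase that works with ferroportin, was at 9.45, 9.20, 8.46 and 9.61 CPM in wild type and at 21.95, 27.1 and 22.8 CPM in the mutants. Mutant 2 was the highest in both export genes. The log2 fold change of Cp was 1.37 (standard error 0.09, limma FDR 6.2e-08), or 2.61-fold between the means. The 95% intervals for Slc40a1, from 1.40 to 2.12, and Cp, from 1.18 to 1.56, overlapped.

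Hmox1 (ENSMUSG00000005413, chromosome 8 from 75820241 to 75827217, plus strand), the inducible heme oxygenase that frees iron from heme, was at 12.3, 10.3, 9.46 and 11.9 CPM in wild type. Its CPM was 20.97, 18.6 and 19.1 in the mutants, above every wild type. The log2 fold change was 0.83 (standard error 0.10, limma FDR 1.1e-05). Hmox2, the constitutive heme oxygenase, went the other way, from 479 ± 9.03 CPM in wild type to 385 ± 11.05 CPM in the mutants (log2 fold change -0.31, standard error 0.04, limma FDR 1.1e-05). Per kilobase Hmox1 was at 6.96 CPM per kb in wild type and 12.4 CPM per kb in the mutants.

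Ireb2 (ENSMUSG00000032293, chromosome 9 from 54770970 to 54820011, plus strand), which encodes iron regulatory protein 2, was at 122, 124, 122 and 115 CPM in wild type and at 124, 124 and 131 CPM in the mutants. The groups overlapped narrowly, and the log2 difference of 0.06 (95% interval from -0.03 to 0.16, limma FDR 0.23) was not called. After scaling by size factors it was -0.07 (interval from -0.17 to 0.03), so that its sign, like that of Tfrc, depended on the scaling. Aco1, which encodes the other iron regulatory protein, rose 1.98-fold, from 16.6 ± 0.855 to 32.9 ± 1.64 CPM (limma FDR 9.7e-08).

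**Figure D3:**
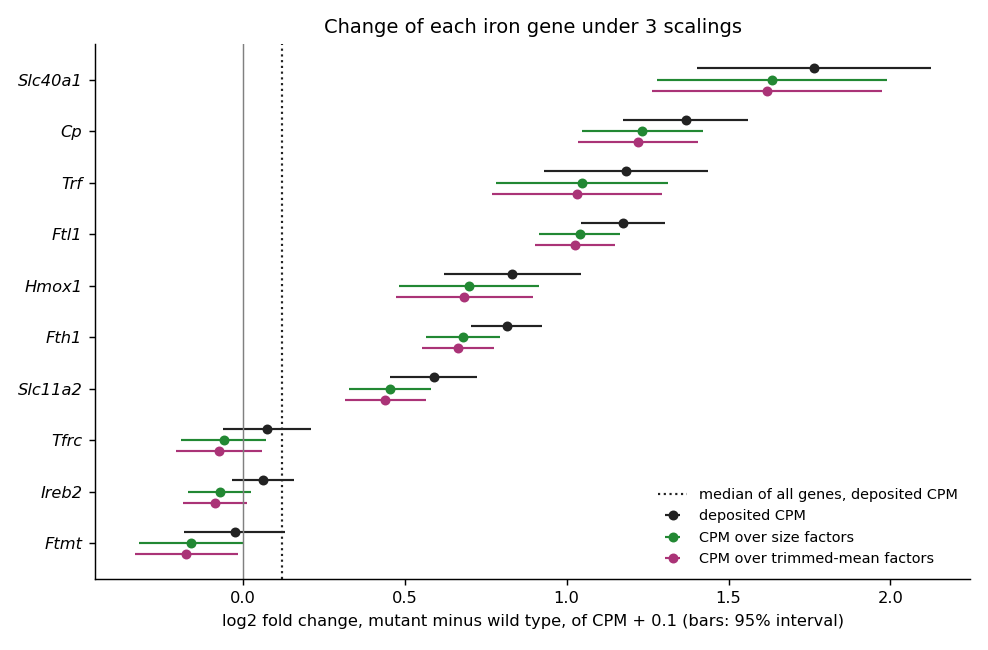
log2 fold change (horizontal axis, mutant minus wild type, on CPM + 0.1) of each iron gene with its 95% interval from limma, on the deposited CPM (black), after size factors (green) and after trimmed-mean factors (purple), with the median of all genes on the deposited CPM dotted. The 7 called genes lie to the right of 0 under all 3 scalings, and Tfrc, Ireb2 and Ftmt lie around or below 0.

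Beyond the 10 members, 85 other genes of iron and heme handling were listed by role, and 69 of them were in the table and tested. Of these, 43 (62.3%) were called higher and 2 lower in the mutant, against 36.3% and 14.2% of all genes. Size factors left 35 called higher and 9 lower, where the shares among all genes were 27% and 25.1%.

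Among 11 genes of uptake and iron reduction, 7 were called higher and 0 lower, against 36.3% and 14.2% of all genes. With size factors 5 were called higher and 0 lower, against 27% and 25.1%. Lcn2, which encodes the siderophore-binding lipocalin 2, moved most of all 69, from 99.9 to 128 CPM in the wild-type libraries to 968 to 1266 CPM in the mutants (log2 fold change 3.31, standard error 0.09, limma FDR 1.4e-10). Hfe, which encodes a partner of the transferrin receptor, and Slc39a14, an importer of iron not bound to transferrin, rose by 0.99 and 0.75 on the log2 scale (standard errors 0.09 for both). Steap3, the endosomal ferrireductase, averaged 4.51 ± 0.834 CPM over the wild types and 6.06 ± 0.479 CPM over the mutants and was not called (limma FDR 0.020).

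Of the 6 storage, iron chaperone and export genes tested beside the members, 1 was called higher and 0 lower on the deposited CPM. The shares of all genes were 36.3% and 14.2%. The called gene was Cisd2, an iron-sulphur protein of the endoplasmic reticulum, higher by 0.52 on the log2 scale (standard error 0.07). Ncoa4, the receptor that delivers ferritin to autophagy, averaged 49.1 ± 3.25 CPM over the wild types and 46.2 ± 2.49 CPM over the mutants, with a log2 difference of -0.09. With size factors 1 of the 6, Cisd2, was called higher and 3, Ncoa4, Pcbp2 and Cisd1, lower, against 27% and 25.1% of all genes. Of 12 genes of iron sensing and hepcidin control, 9 were called higher, against 36.3% of all genes. With size factors 9 were called higher too, against 27%. Bmp6, a ligand that induces hepcidin in the liver, averaged 2.84 ± 0.238 CPM over the wild types and 9.17 ± 2.35 CPM over the mutants. Tmprss6, a protease that restrains the hepcidin signal, was at 1.72 ± 0.234 and 4.18 ± 0.187 CPM and entered the test through the mutants.

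For heme synthesis, 8 of 12 genes were called higher and 1, Alad, lower, against 36.3% and 14.2% of all genes. With size factors 6 were called higher and 1, Alad, lower, against 27% and 25.1%. Ppox, Tmem14c and Fech, which act at or near the last steps in the mitochondrion, rose by 1.497, 1.19 and 0.73 on the log2 scale (standard errors 0.14, 0.08 and 0.07). Alas1, which encodes the first and rate-limiting enzyme outside red cell precursors, averaged 109 ± 8.67 CPM over the wild types and 117 ± 27.1 CPM over the mutants and was not called.

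Of 10 genes that move, scavenge or break down heme, 7 were called higher and 1, Hmox2, lower, against 36.3% and 14.2% of all genes. With size factors 7 were called higher and 2, Hmox2 and Flvcr2, lower, against 27% and 25.1%. The median log2 fold change of 0.87 on the deposited CPM was the highest of the 6 lists. Cd163, the macrophage receptor for hemoglobin bound to haptoglobin, averaged 2.00 ± 0.340 CPM over the wild types and 7.35 ± 0.587 CPM over the mutants (log2 fold change 1.84, standard error 0.15, limma FDR 4.6e-07), and like Slc40a1 it entered the test through the mutants. Slc48a1, which carries heme out of lysosomes, rose 3.00-fold, from 17.8 ± 0.944 to 53.5 ± 2.27 CPM. Blvrb, a biliverdin reductase that acts after heme oxygenase, rose 2.65-fold. The receptor gene Lrp1, which takes up heme bound to hemopexin, and the heme-binding Pgrmc1 rose 2.24-fold and 2.35-fold.

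In the mitochondrial list, 11 of 18 genes were called higher and 0 lower on the deposited CPM, against 36.3% and 14.2% of all genes. The most changed was Fdxr, which encodes ferredoxin reductase, an electron donor for both iron-sulphur clusters and steroid synthesis, from 36.8 ± 1.61 to 108 ± 6.65 CPM (log2 fold change 1.56, standard error 0.06, limma FDR 9.1e-10). The mitochondrial transporter gene Abcb8 rose by 0.52 on the log2 scale (standard error 0.06). Nfs1, the cysteine desulphurase of cluster assembly, averaged 46.4 ± 1.38 CPM in wild type, with 45.9 ± 2.28 CPM among mutants, and was not called. After scaling by size factors 7 genes of this list passed as higher, and 3 as lower, namely Isca1, Isca2 and Bola3, beside 27% and 25.1% of all genes.

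**Figure D4:**
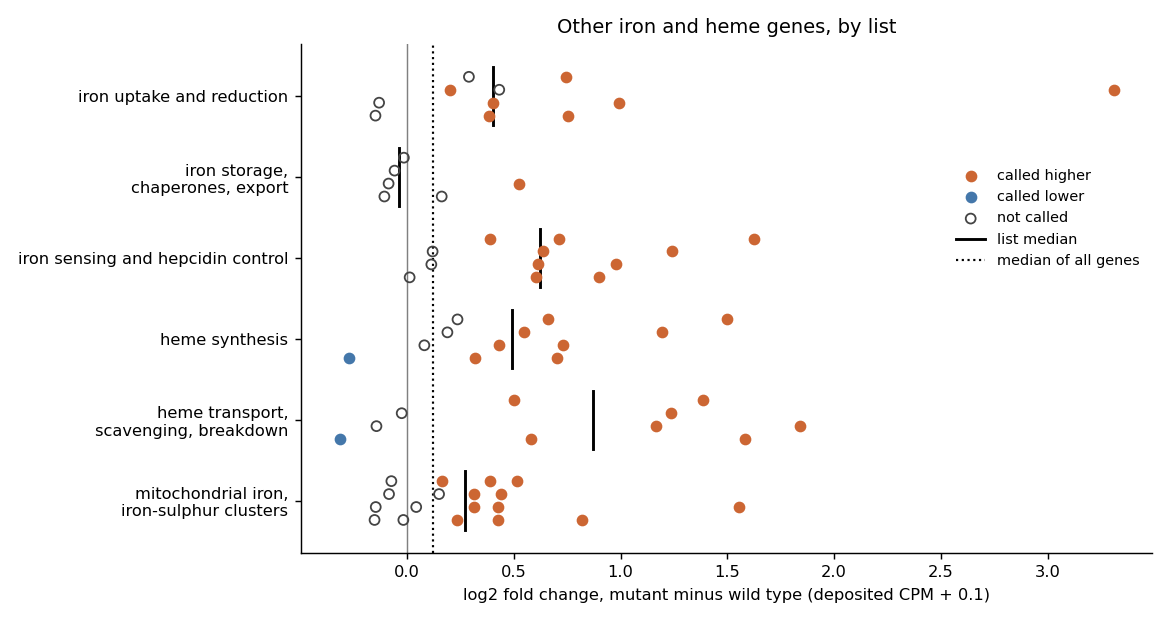
log2 fold change (horizontal axis, mutant minus wild type) of the 69 other iron and heme genes, 1 point per gene, by list, filled orange where called higher, blue where called lower and open where not called, with list medians as bars and the median of all genes dotted. The heme transport and breakdown list has the highest median, 0.87, and the storage list the lowest, -0.04.

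Markers of several testis cell types differed between the groups, some upwards and some downwards. In bulk tissue, a change in the share of a cell type and a change in RNA per cell cannot be told apart. Among all genes tested, 36.3% were called higher and 14.2% lower, and 27% and 25.1% with size factors. All 8 macrophage markers were called higher. Their sum rose from between 92.4 and 103 CPM in wild type to between 285 and 325 CPM in the mutants, 3.16-fold between the means. Of 7 Leydig cell markers 6 were called higher and Star was not called. The sum of the 7 was 3.94-fold higher, at 1108 to 1322 against 4627 to 4772 CPM. Much of this rise was Insl3, the most abundant of them, from 438 ± 15.7 to 2941 ± 37.6 CPM. All 9 Sertoli markers tested were called higher on the deposited CPM and 7 with size factors, where Sox9 and Amh lost their calls. The sum of the 9 rose 2.06-fold, from 1412 to 1517 CPM in wild type to 2940 to 3143 CPM in the mutants. Clu and Ctsl, the most abundant of them, made up much of this rise. Clu went from 851 ± 39.3 to 1816 ± 56.9 CPM and Ctsl from 318 ± 9.07 to 673 ± 35.7 CPM. The sum of 6 spermatogonia markers, of which 3 were called higher (1, Kit, with size factors), was 1.78-fold higher, at 64.1 to 71.8 against 108 to 135 CPM. Kit was the most abundant of the 6 and made up much of this rise, from 21.7 ± 2.49 to 62.2 ± 11.1 CPM. The sum of 5 endothelial markers was 1.39-fold higher, at 32.4 to 36.1 against 46.8 to 48.7 CPM. Of the 5, 2 (40%) were called higher, close to the 36.3% of all genes. Vwf, the most abundant of these 5, went the other way, at 18.1 to 19.0 against 15.2 to 16.7 CPM. With size factors 2 of the 5 were called higher and 1, Vwf, lower. None of the markers in these lists was at 0 in any library.

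All 6 elongating spermatid markers were called lower, against 14.2% of all genes, and all 6 with size factors, against 25.1%. Their sum was at 21418 to 22655 CPM in wild type and 13570 to 15635 CPM in the mutants. Of 6 round spermatid markers 4 were called lower (5 with size factors), and their sum was at 1553 to 1711 against 1369 to 1473 CPM. The sum of 4 peritubular myoid markers overlapped, at 66.2 to 90.1 against 76.5 to 102 CPM, and 1 of the 4 was called higher. The sum of 6 spermatocyte markers overlapped between groups, at 1102 to 1162 against 1035 to 1143 CPM. Of these 6, 1, Spo11, was called higher on the deposited CPM, without overlap, against 36.3% of all genes called higher. With size factors 0 of the 6 were called higher and 3 lower, against 27% and 25.1% of all genes. The sum of the 3 erythroid markers in the table overlapped too, at 16.99 to 29.1 against 17.2 to 31.0 CPM. Of the 3, 0 were called, against 50.4% of all genes in either direction. The part of these shifts in the changes of the iron genes was not tested.

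**Figure D5:**
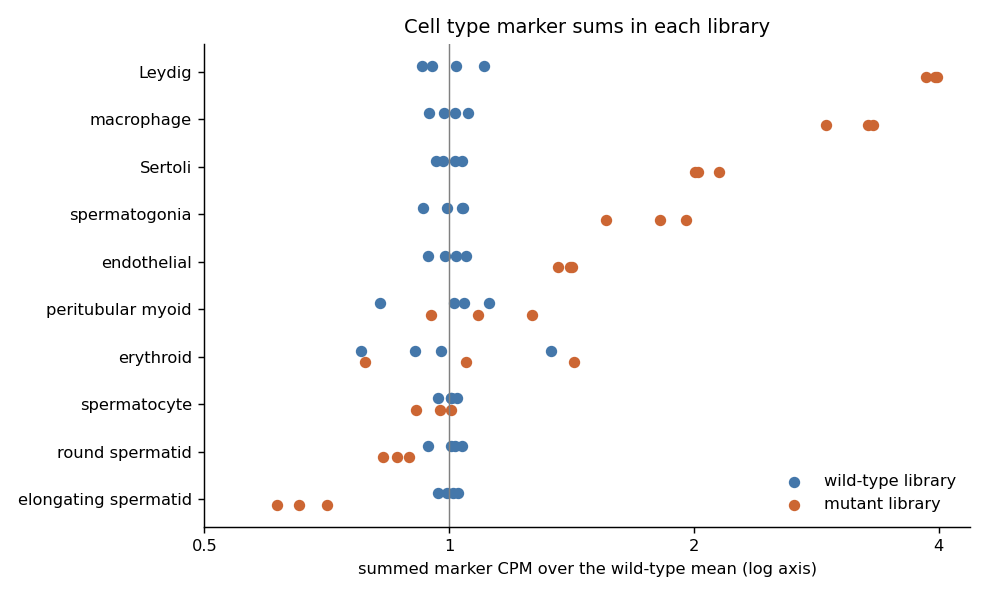
Summed CPM of each cell type's markers over the wild-type mean of that sum (horizontal log axis), 1 point per library, wild type in blue and mutants in orange. Leydig, macrophage, Sertoli, spermatogonia and endothelial sums lie above all wild types in the mutants, elongating and round spermatid sums below, and spermatocyte, myoid and erythroid sums overlap.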

How the data were processed

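Total RNA of whole testes was sequenced, with 1 library per mouse. The authors trimmed reads with Trimmomatic, mapped them with Subread to GRCm39, summarised counts by featureCounts, and discarded any gene that did not reach 75 reads in 2 samples of 1 group. The strand setting and the annotation release are not given in the sources used here. The deposited values are CPM, summing to 1000000 per library, with no between-sample factor. Mutant 3 is not analysed here. The study treated 1 mutant library as an outlier.

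A gene had to reach 2.2 CPM in 2 samples of 1 group (17126 did, 1 did not), and log2(CPM + 0.1) was fitted with limma 3.58.1 (trend, R 4.3.3), adjusted over all genes. Fold changes on this scale understate changes of low genes. Values were whole multiples of a step in each library (100%), but low values were too few for the rule by which whole reads are accepted, so no count model was run. Errors are SDs over libraries, and n is 4 and 3.

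Symbols, positions and sequences came from GENCODE M39 on GRCm39 (17045 genes, 99.5%, matched). Alignments used Biopython 1.88, tables pandas 2.3.3 and NumPy 2.4.6 in Python 3.11.15, and figures matplotlib 3.10.9. Members and lists were chosen with earlier results of these data known. Named genes are the 10 members, and of each other list the 3 largest changes among those called, with, for uptake, storage and heme breakdown, all called genes above 1 on the log2 scale without overlap. Tfr2, Steap3, Ncoa4, Pcbp2, Cisd1, Fthl17a, Hmox2, Alad, Alas1, Nfs1, Isca1, Isca2, Bola3 and Ftl1-ps1 were added after their values were seen. Flvcr2 and the markers Sox9, Amh, Star and Spo11 were also named after their values were seen. A gene that the rule picks is not reported here.

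Alternatives were a pseudocount of 1 or 0.01, no minimum or 5 CPM, size factors, factors from an unweighted trimmed mean of M-values, the replicate number as a block, and each library left out.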

Additional observations from a re-analysis of the deposited data

Results flagged for a closer look

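Wild type 3 had the highest wild-type level of Cisd2, 16.3 CPM, with the remaining wild types between 14.8 and 15.1 CPM. The gap was 0.83 of the range of the 4 values, just past the 95% critical value of Dixon's test. The mutants were at 21.3 to 23.3 CPM. It was the only one among 38 sets of 4 wild-type values looked at, and chance gives about 1 in 20.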

How the results depend on the processing

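The 7 iron genes called higher and 0 called lower were the counts under every alternative run, leaving out any 1 library included. The wider lists gave 43 genes higher, 38 to 42 with a library left out, and 2 lower, 1 to 2 with a library left out (1 without wild type 1, mutant 2 or mutant 4). Lower wider genes numbered 9 with size factors and 10 with trimmed-mean factors. Of all genes, 2428 were lower on the deposited CPM, 4295 with size factors and 4516 with trimmed-mean factors, while 6212 were higher against 4626 and 4480. With a library left out these were 1934 to 2392 lower and 5303 to 6111 higher. Members at the smallest exact permutation p numbered 7, and 7 to 9 with a library left out (9 without wild type 2, where 4 against 3 becomes 3 against 3).

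Signs turned only for members that were not called. The log2 difference of Tfrc was -0.058 with size factors and -0.073 with trimmed-mean factors, and that of Ireb2 was -0.071 and -0.086. That of Ftmt ran from -0.080 to 0.049 with a library left out, and was above 0 without wild type 1 (0.018) or mutant 2 (0.049). The other genes named by rule kept direction and call in all alternatives run, except that a minimum of 5 CPM left Tmprss6 untested. Replicate numbers did not pair the libraries: same-numbered libraries' deviations correlated at -0.10 to 0.03 over 3 pairs, and 1 of 3 mutants correlated best with its own number. With the replicate number as a block, 7 members were higher and 40 wider genes, and 5583 of all genes were higher and 2139 lower. The tests on read counts were not run, because, although 100% of values were whole multiples of a step, low values were too few for the rule by which whole reads are accepted.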
